A study of Mus musculus with 6 samples.

Results

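The genes described here form a set of 33 germline and meiosis genes, many of them known to be silenced by DNA methylation outside the germ line, whose RNA was measured in mouse embryonic stem cells with and without knockdown of Tdg. They were taken as a named list of gene symbols, and each was read from the array row that lists it alone and has the highest mean over all arrays. Of the 33 genes, 31 had such a row, among 19938 named genes in all. Rhox5 and Rhox2a had none and were not analysed here. Tdg encodes thymine DNA glycosylase, which excises thymine from mismatches and the most oxidised cytosine derivatives that TET enzymes make, and the series concerns that oxidation. Both groups were E14 cells, an established mouse embryonic stem cell line, grown without feeder cells on gelatin at 0.1% in medium with 15% fetal bovine serum and 1000 units/ml of leukemia inhibitory factor. Both were transduced with lentiviral vectors at a multiplicity of 10, and puromycin at 2 ug/ml was added after 48 h. The control group was labelled control E14 and the other Tdg KD E14, with 3 arrays each, and the labels name neither the control vector nor the sequence used for knockdown. Nothing in them says that the 3 arrays per group represent separate cultures, so the p-values here reflect no more than array-to-array spread within a group, which may be technical.

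Germ cells prepare for meiosis by building a protein axis along each chromosome. Meiotic cohesin, made of subunits that replace those of dividing somatic cells, holds sister chromatids on this axis, and the synaptonemal complex joins the axes of paired homologues. In the same cells the piRNA pathway, built from PIWI proteins, Tudor-domain proteins and RNA helicases in cytoplasmic granules, silences transposons. Many promoters of these genes are CpG-rich and carry methylation in somatic cells. In embryonic stem cells they are also bound by a variant Polycomb complex that holds E2F6 and the E-box binding pair MGA and MAX, and a part of them is transcribed there.

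The promoters of 5 of the genes are shown, none of which passed in the main comparison described below. Stag3 and Tdrkh had the smallest unadjusted p-values among genes with lower signal, and Syce1 and Rpl10l among those with higher signal. Dazl is a widely used marker of a methylated germline promoter. Each is the stretch of 250 bases before the transcription start, 5′ to 3′ on the gene's strand, from RefSeq on GRCm38.p6. They lie at chr5:138280259-138280508 (+ strand) for Stag3, chr3:94412994-94413243 (+ strand) for Tdrkh, chr7:140787855-140788104 (- strand) for Syce1, chr12:66284402-66284651 (- strand) for Rpl10l and chr17:50293621-50293870 (- strand) for Dazl. Capitals mark CpG, the dinucleotide that carries most cytosine methylation in mammals.
Stag3: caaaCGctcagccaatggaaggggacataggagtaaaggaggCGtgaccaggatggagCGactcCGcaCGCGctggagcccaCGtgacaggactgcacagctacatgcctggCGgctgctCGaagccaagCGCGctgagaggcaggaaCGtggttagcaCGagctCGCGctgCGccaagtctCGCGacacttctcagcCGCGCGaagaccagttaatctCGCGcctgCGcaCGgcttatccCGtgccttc
Tdrkh: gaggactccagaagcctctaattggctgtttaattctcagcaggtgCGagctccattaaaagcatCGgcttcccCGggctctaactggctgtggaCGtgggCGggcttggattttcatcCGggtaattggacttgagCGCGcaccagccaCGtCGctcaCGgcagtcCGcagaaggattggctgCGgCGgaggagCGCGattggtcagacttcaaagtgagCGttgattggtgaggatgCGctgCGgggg
Syce1: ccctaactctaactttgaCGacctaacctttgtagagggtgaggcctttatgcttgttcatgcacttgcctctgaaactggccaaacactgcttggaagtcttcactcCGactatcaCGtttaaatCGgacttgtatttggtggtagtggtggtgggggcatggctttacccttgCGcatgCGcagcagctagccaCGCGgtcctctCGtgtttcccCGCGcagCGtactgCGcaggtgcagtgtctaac
Rpl10l: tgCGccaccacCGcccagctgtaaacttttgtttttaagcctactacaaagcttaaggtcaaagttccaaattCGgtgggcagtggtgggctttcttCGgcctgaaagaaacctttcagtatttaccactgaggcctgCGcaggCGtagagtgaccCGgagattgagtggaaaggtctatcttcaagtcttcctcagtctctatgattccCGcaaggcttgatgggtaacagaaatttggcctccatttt
Dazl: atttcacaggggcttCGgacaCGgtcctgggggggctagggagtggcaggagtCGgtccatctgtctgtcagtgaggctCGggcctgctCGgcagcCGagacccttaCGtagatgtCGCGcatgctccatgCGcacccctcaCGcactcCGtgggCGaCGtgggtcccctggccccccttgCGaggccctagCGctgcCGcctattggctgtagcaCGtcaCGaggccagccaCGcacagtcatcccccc

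These stretches held 26 CpG in Stag3, 19 in Tdrkh, 13 in Syce1, 8 in Rpl10l and 20 in Dazl. RefSeq promoters were at hand for 28 of the 31 measured genes, all but Tex11, Tex15 and Piwil2. The median over the 28 was 14.5 CpG, with quartiles of 9.5 and 19, against a median of 6 and quartiles of 2 and 16 over the promoters of 27025 genes. Ddx4 had the highest number, 31, and Magea10 the lowest, 2. The E-box CACGTG, which reads the same on both strands, was found in 13 of the 28 (46.4%), against 6.05% of all promoters of that length. The letters TCCCGC, the core that E2F6 binds, searched on both strands, were found in 9 of the 28 (32.1%), against 16.9% of all promoters. A match of one can share at most 1 base with a match of the other, and both contain a CpG. Stag3 held an E-box with its first base at -170 from the start, and Rpl10l held TCCCGC at -43. Mael, Hormad1, Sycp3 and Ddx4 held both motifs. The median log2 difference between knockdown and control was -0.10 in the 13 genes with the E-box and -0.05 in the 15 without. It was -0.19 in the 9 with TCCCGC and -0.05 in the 19 without. Among the 9, knockdown replicate 3 was the lowest array for Mael, Zfp37, Sycp3, Ddx4 and Smc1b. It was not the lowest for Hormad1, Tuba3a, Rpl10l and Rec8. These medians were not taken without that array, and their gaps were not tested. The motif counts are descriptions of letters in 1 window. Methylation and factor binding at these promoters were not measured in these arrays.

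Before the germline genes were compared, the targeted gene was read on each array. Its 4 rows are shared with the pseudogene Tdg-ps2, and their mean was 11.12, 11.20 and 11.10 on the control arrays and 8.24, 8.16 and 7.93 on the knockdown arrays. The log2 difference was -3.03 ± 0.09 (SE; limma adjusted p 8.79e-05; exact two-sided permutation p 0.1, the smallest that 3 against 3 arrays allow). The extraction protocol names Kdm2b knockdown, where the titles name Tdg; Kdm2b differed by 0.10 ± 0.08 (limma adjusted p 0.694). Of 10 markers of embryonic stem cells, among them Pou5f1, Nanog and Sox2, none passed the test, and their mean log2 signal was 12.26 to 12.31 on control and 12.25 to 12.33 on knockdown arrays. Knockdown replicate 3 stood apart from the other 5 arrays on the first principal component, at 31.0 against -17.5 to 5.17.

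Tdg knockdown changed none of the 31 germline genes past the threshold, an adjusted p of 0.05 over all 19938 genes (limma), where 0.792% of all genes passed. The differences were small: they ran from -0.54 (Smc1b) to 0.33 (Syce1) on the log2 scale, with 18 below 0 and 13 above it. The median was -0.09, against 0.02 over all named genes. It moved to 0.005 on leaving out control replicate 1, to -0.03 on leaving out knockdown replicate 3, and to -0.16 with the dimmest rows removed. At an unadjusted p under 0.05, 7 germline genes were lower and 2 higher, where 7.48% and 5.03% of all genes were. In bulk RNA, fewer cells that transcribe a gene and less RNA per cell cannot be told apart. For 24 of the 31 the 95% interval of the difference lay within a 1.5-fold change in either direction. The replicate numbers of the 2 groups deviated together, so the same genes were also fitted with the number as a block. In that fit 3 of the 31 passed, Stag3, Tdrkh and Rec8, all lower, where 3.08% of all genes passed and 2.01% were lower. With quantile normalization Stag3, Syce1 and Tex101 passed instead, where 1.87% of all genes did. The 3 calls of the blocked fit were lost when both arrays of any 1 number were left out of the blocked fit (adjusted p 0.208 to 0.617), as was the call of Tdg itself (0.168 to 0.280).

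**Figure D1:**
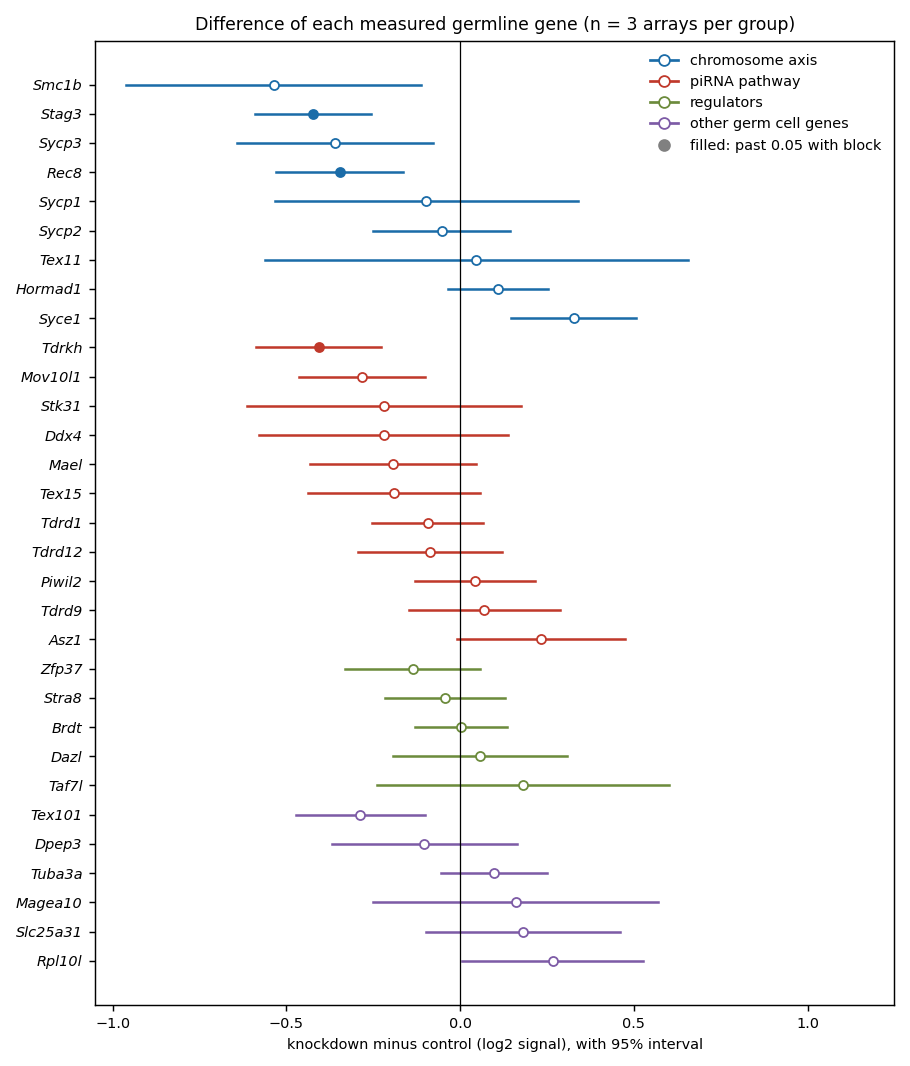
Log2 difference of knockdown minus control for the 31 measured germline genes, grouped by role and ordered by size, with the 95% interval of the limma fit without a block (3 arrays per group). Filled points are the 3 genes past an adjusted p of 0.05 with the replicate block, Stag3, Rec8 and Tdrkh, all left of 0; 22 of the 31 intervals include 0.

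Knockdown and control arrays did not overlap for 9 germline genes. The knockdown arrays were lower for 7 of them, Stag3, Rec8, Smc1b, Sycp3, Tdrkh, Mov10l1 and Tex101, where 11.0% of all named genes had such lower arrays. They were higher for 2, Syce1 and Hormad1, where 7.98% of all genes were. The lower genes thus included 4 of the 9 axis genes, 2 of the 11 piRNA genes, none of the 5 regulators and 1 of the 6 remaining genes.

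**Figure D2:**
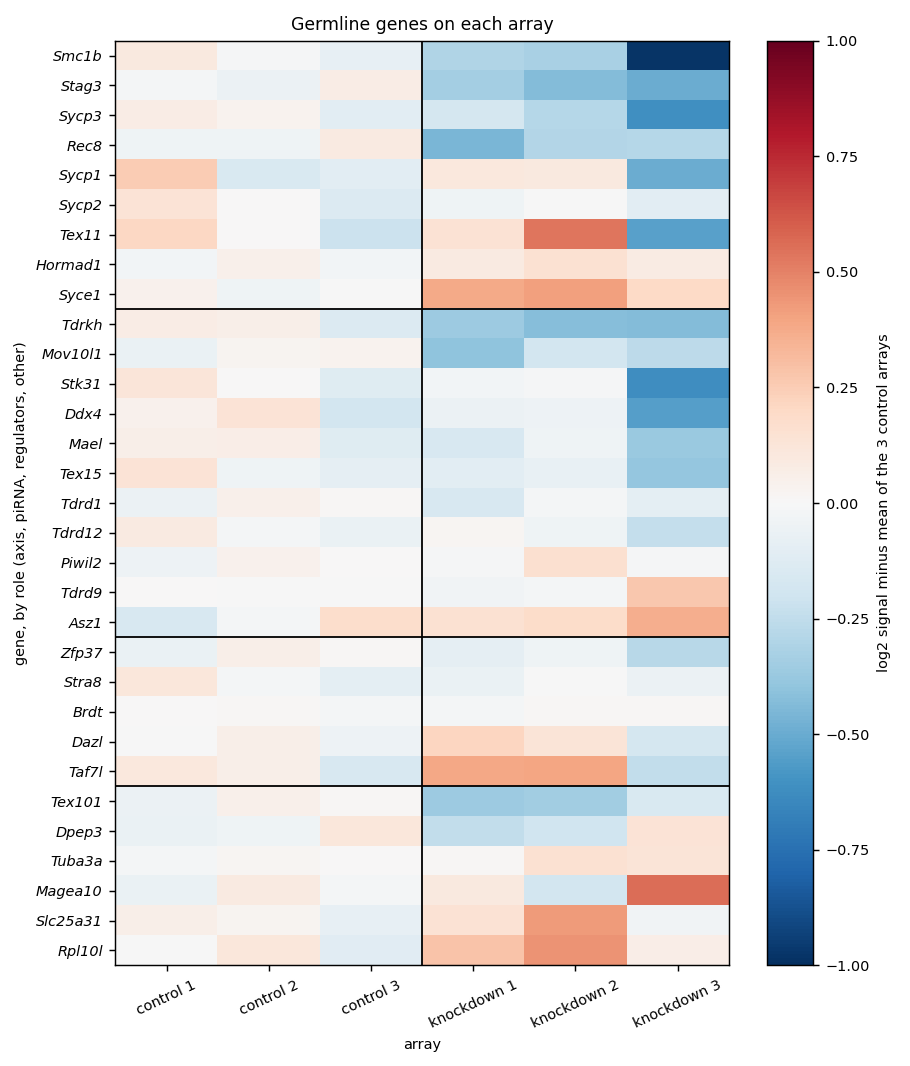
Log2 signal of each measured germline gene on each of the 6 arrays, minus the mean of the 3 control arrays (colour scale from -1 to 1). Rows are genes by role, separated by lines. Every knockdown array lies below every control array for Stag3, Rec8, Smc1b, Sycp3, Tdrkh, Mov10l1 and Tex101. Blue marks a value below the control mean, so other rows, among them Ddx4 and Mael, are also blue on every knockdown array though their groups overlap. Knockdown replicate 3 is the lowest array for 14 of the 31 genes.

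Of the 9 axis genes 6 were below 0 and 3 above it, with a median of -0.10, or -0.03 without knockdown replicate 3. Stag3, the meiotic version of the cohesin subunit that clasps the ring, had log2 signals of 10.00, 9.96 and 10.09 on the control arrays and 9.68, 9.58 and 9.52 on the knockdown arrays. All knockdown arrays lay below all controls, and the difference was -0.42 ± 0.07 (SE; limma adjusted p 0.0563, or 0.0377 with the block), which leaves 74.6% of the control signal. Rec8, the meiotic kleisin that closes the cohesin ring, read 8.79, 8.79 and 8.93 in controls and 8.38, 8.54 and 8.55 in knockdown cells. Its groups did not overlap either, with a difference of -0.35 ± 0.08 (limma adjusted p 0.110, or 0.0423 with the block). Smc1b, the meiotic version of the long ATPase arm of cohesin, read 8.64, 8.53 and 8.46 in controls and 8.24, 8.22 and 7.56 in knockdown cells. The difference of -0.54 ± 0.18 (limma adjusted p 0.273, blocked 0.0718) was widened by the low value of knockdown replicate 3, and was -0.31 ± 0.07 without that array (limma adjusted p 0.0998).

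The subunits of cohesin that act in dividing somatic cells were read from a list of 5. Their median difference was -0.05, or 0.03 without knockdown replicate 3. None of the 5 passed in either fit, where 0.792% of all genes passed without the block and 3.08% with it. Rad21, the mitotic counterpart of Rec8, differed by 0.02 with a 95% interval from -0.12 to 0.16. Smc1a, the counterpart of Smc1b, differed by -0.05 (-0.19 to 0.09). Stag1 and Stag2, the counterparts of Stag3, differed by -0.19 (-0.46 to 0.08) and -0.13 (-0.49 to 0.22), with knockdown replicate 3 lowest for both. Smc3, which both kinds of cohesin share, differed by 0.02 (-0.19 to 0.22). Their arrays overlapped between the groups for all 5, as they did for most genes: 11.0% of all genes were apart lower and 7.98% apart higher. Rad21l, a meiotic kleisin outside the germline set, read 5.31, 5.36 and 5.36 in controls and 5.33, 5.24 and 5.18 in knockdown cells. These signals lay below the column medians (7.41 to 7.48). Its groups overlapped too, with a difference of -0.09 (limma adjusted p 0.654), unlike those of Stag3, Rec8 and Smc1b. The difference between the meiotic and the mitotic subunits was itself not tested.

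**Figure D3:**
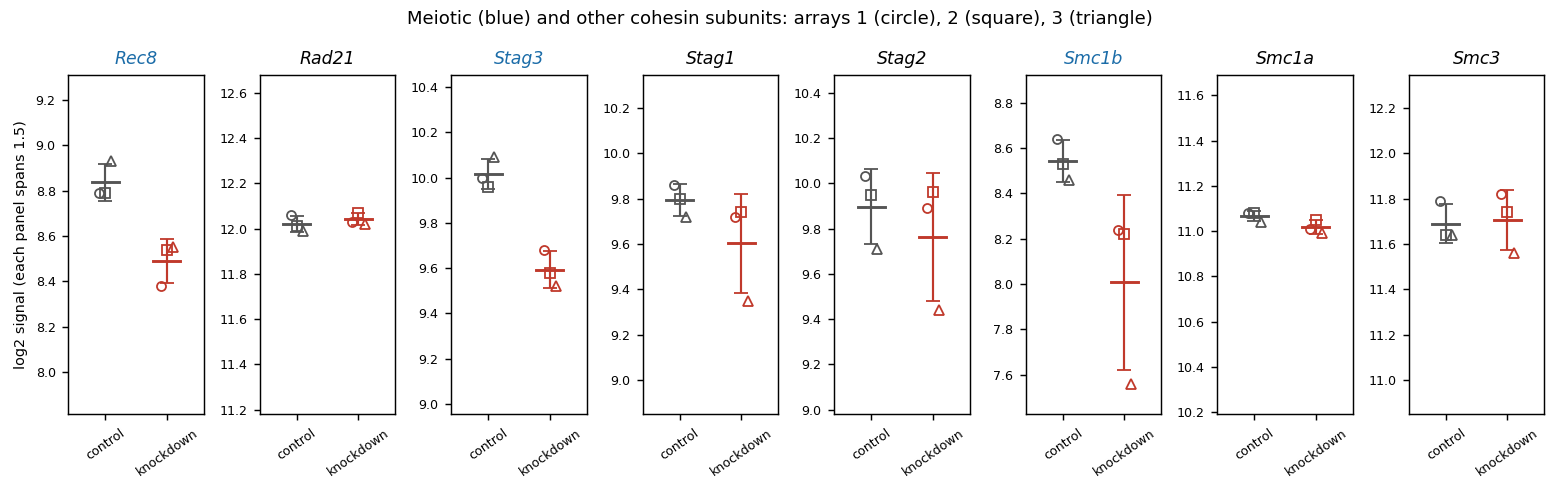
Log2 signal of the meiotic cohesin subunits Rec8, Stag3 and Smc1b (blue names) and of the other subunits, with 3 control arrays (grey) and 3 knockdown arrays (red), the mean as a bar and the SD as whiskers. Each panel spans 1.5 log2 units around the gene's own mean. The groups are apart for the 3 meiotic genes shown and overlap for Rad21, Stag1, Stag2, Smc1a and Smc3. The meiotic subunit gene Rad21l is not shown, and its groups overlap. Of all genes 11.0% were apart lower and 7.98% apart higher.

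Among the synaptonemal complex and its partners, values went both ways. Sycp3, a structural protein of the lateral element, read 10.49, 10.45 and 10.31 in controls and 10.24, 10.13 and 9.80 in knockdown cells. The groups did not overlap, and the difference was -0.36 ± 0.12 (limma adjusted p 0.270, blocked 0.0537), or -0.23 ± 0.08 without knockdown replicate 3. Syce1, a protein of the central element, read 8.41, 8.32 and 8.36 in controls and 8.74, 8.77 and 8.56 in knockdown cells. Here all knockdown arrays were the higher ones, with a difference of 0.33 ± 0.08 (limma adjusted p 0.123, blocked 0.0633). Without knockdown replicate 3 Syce1 was the only germline gene past the threshold (0.39, limma adjusted p 0.0373), where 1.46% of all genes passed. Hormad1, which marks unsynapsed axes, was higher on each knockdown array but by only 0.11 (limma adjusted p 0.548), and its second row, not used above, gave -0.05. Sycp1, the transverse filament, differed by -0.10, and by 0.10 without knockdown replicate 3, and Sycp2, the partner of Sycp3, by -0.05. Tex11, an X-linked crossover factor, differed by 0.05 with a standard error of 0.26: its knockdown arrays read 6.71, 7.10 and 6.02, a wider spread than for any other germline gene measured here, and without knockdown replicate 3 the difference was 0.34.

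The piRNA genes had a median difference of -0.19 over 11 genes, 8 of them (72.7%) below 0, where 44.5% of all named genes were. Knockdown replicate 3 was the lowest: their median deviation from the control mean was -0.06, -0.04 and -0.26 on the 3 knockdown arrays, and without that array the median difference was -0.06, with 81.8% of the genes and 51.5% of all genes below 0. Tdrkh, a Tudor-domain protein that anchors PIWI proteins to mitochondria, read 7.39, 7.37 and 7.18 in controls and 6.95, 6.89 and 6.88 in knockdown cells. Every knockdown array lay below every control, and the difference was -0.41 ± 0.08 (limma adjusted p 0.0736, or 0.0355 with the block). Mov10l1, the helicase that hands piRNA precursors on for processing, read 8.65, 8.74 and 8.75 in controls and 8.31, 8.53 and 8.45 in knockdown cells. Its groups did not overlap, at -0.28 ± 0.08 (limma adjusted p 0.171, blocked 0.0600).

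Ddx4, the conserved germ cell helicase also known as VASA, read 9.36, 9.46 and 9.14 in controls and 9.26, 9.27 and 8.77 in knockdown cells. The groups overlapped, and the difference of -0.22 ± 0.15 became -0.06 ± 0.10 without knockdown replicate 3. Mael, a piRNA factor of the nuage granules, read 10.86, 10.87 and 10.68 against 10.64, 10.76 and 10.43. Its difference was -0.19 ± 0.10, and -0.10 without that array. Tex15, which acts in piRNA-directed methylation of transposons, read 8.01, 7.83 and 7.79 against 7.77, 7.80 and 7.49, a difference of -0.19, and -0.09 without that array. Stk31, a Tudor-domain kinase-like protein, showed -0.22, and -0.02 without knockdown replicate 3. In these 4 genes knockdown replicate 3 was the lowest of all 6.

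Asz1, an ankyrin-repeat protein of the same granules, lay on the other side, with 5.05, 5.19 and 5.38 in controls and 5.36, 5.39 and 5.57 in knockdown cells. The groups overlapped, and it differed by 0.23 ± 0.10 (limma adjusted p 0.420, blocked 0.0876). The remaining piRNA genes were within 0.10 of 0: Tdrd1 (-0.09), Tdrd12 (-0.09), Piwil2 (0.04) and Tdrd9 (0.07). Piwil2, the PIWI protein at the start of the pathway, had a 95% interval from -0.13 to 0.21.

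The 5 measured regulators had a median difference of 0.003, or -0.002 without knockdown replicate 3. Dazl, an RNA-binding protein that germ cells need to develop, read 8.93, 8.99 and 8.88 in controls and 9.15, 9.06 and 8.76 in knockdown cells. The knockdown arrays lay on both sides of the controls, and the difference was 0.06 ± 0.11, with a 95% interval from -0.19 to 0.31. Stra8, the retinoic acid-induced gene that starts meiosis, read 7.07, 6.94 and 6.86 against 6.89, 6.95 and 6.90, a difference of -0.04 (-0.22 to 0.13). Brdt, a bromodomain protein of spermatocytes, stayed between 6.81 and 6.84 on all 6 arrays. Stra8 and Brdt both read below the column medians (7.41 to 7.48). No background values were used here, so whether such dim rows could show a change is not known. Zfp37, a zinc finger gene, differed by -0.14, and Taf7l, an X-linked paralogue of a general transcription factor subunit, by 0.18. Taf7l read 6.48, 6.43 and 6.21 in controls and 6.76, 6.77 and 6.13 in knockdown cells, and its difference was 0.39 without knockdown replicate 3 (limma adjusted p 0.100).

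The other germ cell genes had a median of 0.13 over 6 genes, or 0.02 without knockdown replicate 3. Tex101, a surface glycoprotein of germ cells, read 7.16, 7.27 and 7.23 in controls and 6.86, 6.87 and 7.07 in knockdown cells. The knockdown arrays were all lower, with a difference of -0.29 ± 0.08 (limma adjusted p 0.176, blocked 0.0778). Rpl10l, a ribosomal protein retrogene used in spermatocytes, read 10.23, 10.35 and 10.12 in controls and 10.52, 10.68 and 10.30 in knockdown cells. The groups overlapped through knockdown replicate 3, with a difference of 0.27 ± 0.11 (limma adjusted p 0.389, blocked 0.0703). Rpl10l and the tubulin gene Tuba3a (0.10) have near-identical copies elsewhere in the genome, so their signal is uncertain. Slc25a31, a germ cell ADP/ATP carrier, showed 0.18, and Dpep3, a membrane dipeptidase, -0.10. Magea10, an X-linked cancer-testis gene, showed 0.16, and knockdown replicate 3 (7.15) lay above all its other arrays while knockdown replicate 2 (6.41) lay below them.

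Several germline genes overlap another gene in RefSeq. Gpc2, which overlaps Stag3, differed by -0.23 ± 0.07 (limma adjusted p 0.246), and Gal3st4, which also does, by 0.06. Oaz3, which overlaps Tdrkh, differed by -0.01, and Fam118a, which overlaps Smc1b, by 0.06. Chpt1, which overlaps Sycp3, differed by -0.28 ± 0.14 (limma adjusted p 0.480).

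Knockdown replicate 3 read lower than the other knockdown arrays over the germline genes as a group. The median deviation of the 31 genes from their control mean was -0.03, -0.02 and -0.17 on the 3 knockdown arrays, against 0.00, 0.00 and 0.03 over all named genes. On the control arrays it was 0.01, 0.02 and -0.05, so control replicate 3 was also the lowest of its group. Of the 31 genes 45.2% were lowest on this array, where 28.8% of all genes were, and 4 were highest, where 33.3% of all genes were. Without it the median difference over all genes was -0.005, and 4 germline genes had the other sign: Sycp1, Tdrd9, Brdt and Magea10. Markers of other cell types also read differently there. The 9 fibroblast markers measured, which include the collagens Col1a1, Col1a2 and Col3a1, had a median deviation of 0.25 on this array and -0.07 and -0.17 on the other knockdown arrays. It was -0.10, 0.01 and 0.13 on the control arrays, so control replicate 3 was again the array that deviated in the same direction. Their mean log2 signal was 6.68 to 6.90 on control and 6.66 to 7.05 on knockdown arrays. The 8 markers of extra-embryonic endoderm deviated by 0.21 on knockdown replicate 3 and by -0.03 and -0.11 on the other knockdown arrays. Their mean was 7.82 to 7.88 on control and 7.79 to 7.94 on knockdown arrays. They did not move together: Dab2 (-0.30) and Sparc (-0.19) were lower on every knockdown array than on any control, and Dab2 was lowest on knockdown replicate 3, while Foxa2 (0.15) was higher on every knockdown array. The 7 markers of gonadal somatic cells deviated by 0.12, against -0.05 and -0.02, with a mean of 6.59 to 6.73 and 6.64 to 6.73. These were split as well. Sox9, Amh, Gata4 and Hsd3b1 were highest of all arrays on knockdown replicate 3, while Star (-0.14) and Cyp17a1 (-0.07) were lowest there. Wt1 (0.17) was higher on every knockdown array, but least so on knockdown replicate 3. None of these markers passed in either fit, no detection calls were used here, so none can be called absent, and their part in the germline values was not tested. The lists are not fully separate. Pdgfra was counted among both the fibroblast and the endoderm markers, and Gata4 among both the endoderm and the gonadal ones.

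Genes of the same pathways outside the set were taken from further lists. Of 29 other meiosis genes 1 fell and none rose, where 0.792% of all genes changed; their median was -0.08, and 0.01 without knockdown replicate 3. The gene that fell was Cntd1, a cyclin-like regulator of crossover maturation, which read 8.33, 8.33 and 8.32 in controls and 7.76, 7.85 and 7.49 in knockdown cells. The groups did not overlap, with a difference of -0.63 ± 0.10 (limma adjusted p 0.0462, blocked 0.0259), and the knockdown arrays spread more widely than the controls. Its call was lost without any 1 array except knockdown replicate 3 (limma adjusted p 0.0867 to 0.247), and on centring each array (0.0541) or quantile normalization (0.0515). With the block Rec114, a cofactor of meiotic double-strand break formation, also passed (-0.49 ± 0.08, limma adjusted p 0.0575, blocked 0.0217). In that fit 2 of the 29 passed, where 3.08% of all genes did.

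Of 15 other piRNA genes none passed (limma), with 4 lower and 1 higher at an unadjusted p under 0.05 and a median of -0.09 (-0.07 without knockdown replicate 3). Of all genes 7.48% were lower and 5.03% higher at that p. Piwil4, the PIWI protein that enters the nucleus, read 7.77, 7.77 and 7.65 in controls and 7.43, 7.43 and 7.35 in knockdown cells. Its groups did not overlap, and the difference of -0.33 ± 0.07 had an adjusted p of 0.0861 in limma, or 0.0378 with the block. With the block 1 of the 15 passed, where 3.08% of all genes did. Exd1, a partner in piRNA biogenesis, differed by -0.29 ± 0.06 (limma adjusted p 0.102, blocked 0.0508). Of 8 other Rhox genes, X-linked homeobox genes of reproductive tissues, none passed (limma; 1 higher at an unadjusted p under 0.05, where 5.03% of all genes were), with a median of 0.10, or 0.04 without knockdown replicate 3. Rhox1 read 8.77, 8.80 and 9.00 in controls and 9.14, 9.24 and 9.24 in knockdown cells, a difference of 0.35 ± 0.08 (limma adjusted p 0.121, or 0.0461 with the block). It was the only 1 of the 8 to pass with the block, where 3.08% of all genes did. Rhox9 differed by 0.11 (limma adjusted p 0.553).

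Genes that set up the germ line or hold its genes silent had median differences near 0, with single genes on either side. Of 12 genes of primordial germ cells none passed (limma; 1 lower at an unadjusted p under 0.05, where 7.48% of all genes were), with a median of 0.03, or -0.003 without knockdown replicate 3. Prdm1, the repressor that specifies these cells, had the smallest p, at -0.31 ± 0.11 (limma adjusted p 0.295, blocked 0.0727), followed by the membrane protein gene Ifitm1 at -0.12 (0.472). The knockdown arrays of both lay below all controls, where 11.0% of all genes had such lower arrays. Those of Lin28a (0.09) lay above all controls, where 7.98% of all genes did. Of 25 genes of repressors at germline promoters none passed (limma; 3 higher at an unadjusted p under 0.05, where 5.03% of all genes were), with a median of 0.01, or 0.06 without knockdown replicate 3. The list includes E2f6, Mga, Max, Pcgf6, Setdb1 and the DNA methyltransferases. The smallest p-values were those of the histone deacetylase gene Hdac1 (0.19 ± 0.07) and of L3mbtl2, a subunit of the E2F6 complex (0.18 ± 0.06), both with a limma adjusted p of 0.300. Dnmt3b followed at 0.19 ± 0.07 (limma adjusted p 0.323), while Dnmt1 (-0.04) and Dnmt3a (0.01) overlapped between the groups. Of the 25 genes 4 were higher on every knockdown array and 1 was lower, where 7.98% and 11.0% of all genes were.

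**Figure D4:**
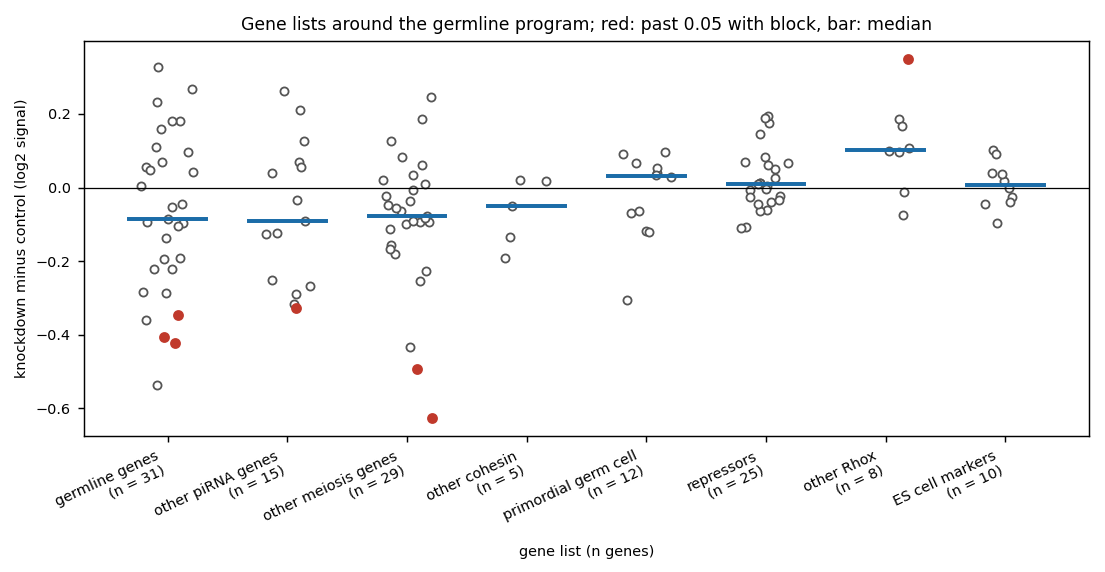
Log2 difference of knockdown minus control for each gene of 8 lists (points; n is the number of genes), with the list median as a bar and genes past an adjusted p of 0.05 with the replicate block in red. The medians run from -0.09 in the other piRNA genes and the germline genes to 0.10 in the other Rhox genes. Red points are Stag3, Tdrkh, Rec8, Piwil4, Cntd1 and Rec114 below 0 and Rhox1 above it. Of all genes 3.08% passed with the block.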

How the data were processed

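RNA from 6 samples, 3 control and 3 Tdg knockdown, was measured on Affymetrix arrays. The deposited log2 signals, 1 per probe set and array, come from Affymetrix Expression Console according to the submitters' processing notes. The summarisation and normalization were not given in the sources used here. Their range (2.26 to 14.03, column medians 7.41 to 7.48) is that of log2 values. Of 35557 rows, 21789 list 1 gene, 1621 several and 12147 none in the platform annotation; 21698 of the single-gene rows matched RefSeq (GRCm38.p6) by gene identifier, and the row with the highest mean was kept for each gene. Differences were tested with limma 3.58.1 in R 4.3.3 (lmFit, eBayes, two-sided, Benjamini-Hochberg over 19938 genes, threshold 0.05). The procedure was also run on simulated data with independent noise on each array. It was required only to return the median of the differences put in. Deviations shared within replicate numbers were not simulated, and no rate of calls is drawn from it here.

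The genes and lists were chosen with earlier results of these data known. Germline genes were described on all 6 arrays where the unadjusted p was under 0.05 in either fit, with Dazl, Ddx4, Sycp3, Mael and Stra8; from other lists, those past the threshold or the 2 with the smallest p. Rhox1, Piwil4 and Rec114 are given with the block.

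Pairing by the replicate numbers in the titles was checked: deviations from the group means correlated at 0.61, 0.23 and 0.70 within numbers, each over the criterion of 0.1, but knockdown replicate 2 correlated more with control replicate 1 (0.44) than with its own number (0.23). No label says what a number shares, so blocked values hold only if the numbers pair the samples. Alternatives were the replicate block, 2 scalings, a filter on dim rows, another prior, the mean of a gene's rows and leaving out arrays; leaving out both arrays of a number, and list medians without knockdown replicate 3, were chosen after seeing the data.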

Additional observations from a re-analysis of the deposited data

How the results depend on the processing

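The 31 germline genes gave 0 calls in the main comparison, on centring arrays and with the mean of a gene's rows. They gave 3 with the replicate block (Stag3, Tdrkh, Rec8), 3 with quantile normalization (Stag3, Syce1, Tex101), 1 with a trended and robust prior (Stag3) and 2 without the dimmest rows (Stag3, Tdrkh), which tests 13289 genes and 20 of the 31. Leaving out arrays gave 0 to 1 (Syce1, without knockdown replicate 3). Their median difference of -0.09 was -0.16 without the dimmest rows, and -0.11 to 0.005 with arrays left out, the last without control replicate 1. Over all named genes 158 calls became 614 with the replicate block, 373 with quantile normalization, 446 with the other prior, 444 without the dimmest rows and 0 to 291 with arrays left out (0 without control replicate 1 or 2 or knockdown replicate 1, 4 without knockdown replicate 2, 15 without control replicate 3, 291 without knockdown replicate 3). In the other lists together, 1 call became 0 on centring, 4 with the block, 2 with the other prior, 4 without the dimmest rows and 0 to 1 with arrays left out. Tdg ran from -3.11 to -2.94 with arrays left out; its call was lost with the block without both arrays of number 1, 2 or 3 (-3.11, -3.03 and -2.96), where no gene passed (limma; 1584 to 4486 at an unadjusted p under 0.05). Without both arrays numbered 3 and with no block, 112 genes and 0 germline genes passed, with a median of -0.06. The 13 germline genes with an unadjusted p under 0.05 in either fit, and Cntd1, kept their direction in all 223 values recomputed. This count is no test, because the germline genes were picked by their p in the same data. For these genes the block on all arrays, the other prior, the filter on dim rows and the mean of rows left each difference unchanged. Direction could not turn in those settings. Nor could it turn on leaving out arrays for Cntd1 and for those of the germline genes whose groups did not overlap. The cause of these changes was not tested. With 3 arrays per group and no background or detection values used here, precision rests on the number of arrays.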
